A study of Mus musculus with 8 samples.

Results

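The PIWI and piRNA biogenesis genes were 10 of the 21058 genes quantified, taken by name for their place in the pathway, with earlier results of these data known. They are *Piwil1*, *Piwil2* and *Piwil4*, which encode the mouse PIWI proteins, their cofactor gene *Gtsf1*, and the processing factor genes *Mov10l1*, *Pld6*, *Asz1*, *Mael*, *Ddx4* and *Henmt1*. RNA-seq of polyadenylated RNA was compared between 4 *Arid1a* WT samples and 4 *Arid1a* cKO samples of pachytene spermatocytes, purified by Sta-Put (sedimentation of dissociated testis cells at unit gravity) from pooled testes of adult males. The floxed allele was kept on a CD1 background. The knockout males combined *Arid1a* fl/fl with *Stra8-Cre* (Tg/0), a transgene active in spermatogonia, so that floxed *Arid1a* can be cut out before meiosis starts. *Arid1a* WT males carried floxed alleles (fl/fl or fl/+) without Cre. Excision is described by the study as inefficient, with some spermatocytes of *Arid1a* cKO males escaping it, so the *Arid1a* cKO samples mix cells with and without ARID1A, a putative DNA-binding subunit of the BAF class of SWI/SNF chromatin remodelers. The comparison asks how transcript abundance during pachynema depends on ARID1A.

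PIWI proteins are the germline branch of the Argonaute family, and they carry piRNAs, short RNAs that guide them to complementary transcripts. In the adult mouse testis, long single-stranded precursors are transcribed in bulk at the pachytene stage, unwound by a helicase, cut on the outer membrane of mitochondria, loaded onto MIWI (*Piwil1*) or MILI (*Piwil2*), trimmed, and methylated at their ends. MIWI2 (*Piwil4*) belongs to an earlier time, the fetal male germ cells, where it directs DNA methylation to transposons. Transcription of many pachytene piRNA precursors and of several biogenesis genes depends on the MYB-family factor A-MYB, encoded by *Mybl1*.

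The promoter windows of 6 of these genes are shown to set 4 genes that fell by different amounts (*Piwil1*, *Pld6*, *Mov10l1* and *Asz1*) beside *Gtsf1* and *Mael*, which rose, with the core letters of a MYB site in capitals. The core searched was AACNG on either strand (CNGTT on the other). Each window held the 250 bases before a RefSeq start on GRCm38.p6, and 9 of the 10 genes had an entry. Such a start can lie inside the annotated gene. The windows of *Piwil1*, *Mov10l1* and *Gtsf1* ran partly into the gene, and those of *Henmt1* and *Ddx4* lay within it. A further window each of *Piwil4* and *Pld6* also lay within the gene. Each sequence reads along the gene's strand and is the portion of its window outside the gene and its annotated exons. It spans chr5:128735996-128736070 (plus strand) for *Piwil1*, chr15:88982744-88982890 (plus strand) for *Mov10l1*, chr11:59787658-59787907 (minus strand) for *Pld6*, chr6:18109062-18109311 (minus strand) for *Asz1*, chr1:166238748-166238994 (minus strand) for *Mael* and chr15:103430471-103430677 (minus strand) for *Gtsf1*.
Piwil1: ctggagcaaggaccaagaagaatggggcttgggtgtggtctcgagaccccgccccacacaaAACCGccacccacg
Mov10l1: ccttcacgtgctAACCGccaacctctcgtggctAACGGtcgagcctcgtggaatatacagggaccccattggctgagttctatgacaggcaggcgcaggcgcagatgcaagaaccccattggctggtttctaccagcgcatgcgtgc
Pld6: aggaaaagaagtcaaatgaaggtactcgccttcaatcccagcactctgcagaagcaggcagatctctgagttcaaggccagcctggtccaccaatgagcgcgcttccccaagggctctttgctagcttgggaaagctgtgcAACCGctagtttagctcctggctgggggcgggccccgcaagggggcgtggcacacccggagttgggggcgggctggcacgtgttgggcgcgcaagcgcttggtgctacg
Asz1: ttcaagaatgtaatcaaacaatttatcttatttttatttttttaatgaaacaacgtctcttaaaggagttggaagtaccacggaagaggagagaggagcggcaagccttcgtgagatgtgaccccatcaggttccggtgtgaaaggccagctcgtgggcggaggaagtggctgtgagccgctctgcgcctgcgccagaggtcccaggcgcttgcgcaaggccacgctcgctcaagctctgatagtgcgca
Mael: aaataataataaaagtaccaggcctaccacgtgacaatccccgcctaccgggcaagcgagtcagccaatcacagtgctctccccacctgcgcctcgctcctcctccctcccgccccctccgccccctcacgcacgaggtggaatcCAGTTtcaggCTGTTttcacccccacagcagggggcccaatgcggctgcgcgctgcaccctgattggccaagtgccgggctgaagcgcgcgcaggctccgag
Gtsf1: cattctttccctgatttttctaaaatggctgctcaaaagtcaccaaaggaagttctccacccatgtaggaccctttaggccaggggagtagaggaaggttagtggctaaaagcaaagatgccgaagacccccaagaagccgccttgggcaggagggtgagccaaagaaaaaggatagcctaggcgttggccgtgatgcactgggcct
Over the full 250-base windows, *Piwil1* had 4 matches, *Mov10l1* and *Mael* had 2, *Pld6*, *Henmt1* and *Ddx4* had 1, and *Asz1* and *Gtsf1* had 0. Among genes that fell, *Asz1* had 0 and *Piwil1* 4, and of those that rose *Gtsf1* had 0 and *Mael* 2. A link between matches and the changes was not tested. The 2 windows of *Piwil4* had 1 and 3. *Pld6* has a further RefSeq window, not shown because it lies within the gene, with 2 matches. Such a short core is common, and 74.2% of 32851 promoter windows held at least 1 match, while 7.03% held 4 or more. The longer MYB site TAACGG, which reads as CCGTTA on the opposite strand and whose last letters contain the core, was in the windows of *Piwil1* and *Mov10l1* and in 2.18% of all windows. At *Piwil1* it lay past the annotated gene start. The shown portion of *Piwil1*, upstream of the gene, held 1 core match and 0 of the longer site. At *Mov10l1* the longer site lay in the shown portion. A match describes letters in a window and says nothing on whether a factor binds there.

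Libraries held 18308688 to 22044507 estimated counts in *Arid1a* WT and 15850961 to 21626772 in *Arid1a* cKO. Genotypes were compared with edgeR's quasi-likelihood test on 17643 genes, and genes with a Benjamini-Hochberg adjusted p up to 0.05 were called. Counts scaled to a common library size (CPM) follow a gene across libraries, while TPM, the scale on which Salmon corrects for transcript length as well as depth, sets genes side by side. *Arid1a* itself was at 98.8 to 128 CPM in *Arid1a* WT and at 76.4 to 82.9 CPM in *Arid1a* cKO, or a log2 fold change of -0.51 with a standard error (SE) of 0.07 (adjusted p = 2.31e-05). The study detected transcripts of the excised allele, which can still count towards the gene. This fall therefore does not measure how many cells lost ARID1A. The labelled cell type was checked on marker lists. All 8 pachytene spermatocyte markers were detected, with a summed level of 7214 to 8377 TPM in *Arid1a* WT and 5759 to 6086 TPM in *Arid1a* cKO, and 2 of them rose and 5 fell. All 14 spermatid markers rose, from a sum of 8085 to 8808 TPM to one of 27933 to 29423 TPM, with *Prm1* at 1330 to 1541 TPM in *Arid1a* WT and 5702 to 6249 TPM in *Arid1a* cKO. Sertoli cell markers fell at 8 of 8 tested, from 463 to 534 TPM to 122 to 130 TPM (*Rhox5* was listed at 0 throughout), and Leydig cell markers fell at 5 of 6, from 76.7 to 89.9 TPM to 6.96 to 8.59 TPM. Of the other lists, 5 of 7 leptotene and zygotene, 7 of 10 spermatogonia, 3 of 4 peritubular and 5 of 7 macrophage and blood markers rose. Their summed levels were 143 to 173, 129 to 141, 7.79 to 10.5 and 6.32 to 7.88 TPM in *Arid1a* WT and 161 to 168, 132 to 142, 10.3 to 12.4 and 9.24 to 12.1 TPM in *Arid1a* cKO, in that order. The pachytene, spermatid, Sertoli, Leydig, and macrophage and blood sums did not overlap between genotypes, while the other 3 did. Within the leptotene and zygotene sum, *Spo11* went from 97.3 to 115 TPM to between 15.6 and 16.9 TPM as *Rec8* went from 14.8 to 21.6 TPM to between 88.4 and 94.8 TPM, and within the spermatogonia sum *Id4* went from 33.8 to 37.1 TPM to between 4.91 and 5.32 TPM. The part of the marker changes in the results on the piRNA genes was not tested.

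Transcript abundance fell in *Arid1a* cKO at 6 of the 10 genes (*Piwil1*, *Piwil2*, *Mov10l1*, *Pld6*, *Asz1* and *Henmt1*), rose at *Gtsf1* and *Mael*, and was not called at *Ddx4* or *Piwil4*. All 10 passed the count filter. The call itself sets the genes little apart, because 74.0% of all genes tested were called, 37.5% as lower and 36.5% as higher. At 8 of the 10 genes, the CPM values of the genotypes did not overlap, against 68.9% of all genes (34.9% with *Arid1a* cKO lower and 34.0% with it higher). The sizes differed more, since 5 of 10 fell by at least 1 log2 unit, against 16.0% of all genes tested, and their median log2 fold change was -1.06, against -0.02 over all genes. In bulk RNA, fewer cells of a stage and less RNA per cell cannot be told apart.

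**Figure D1:**
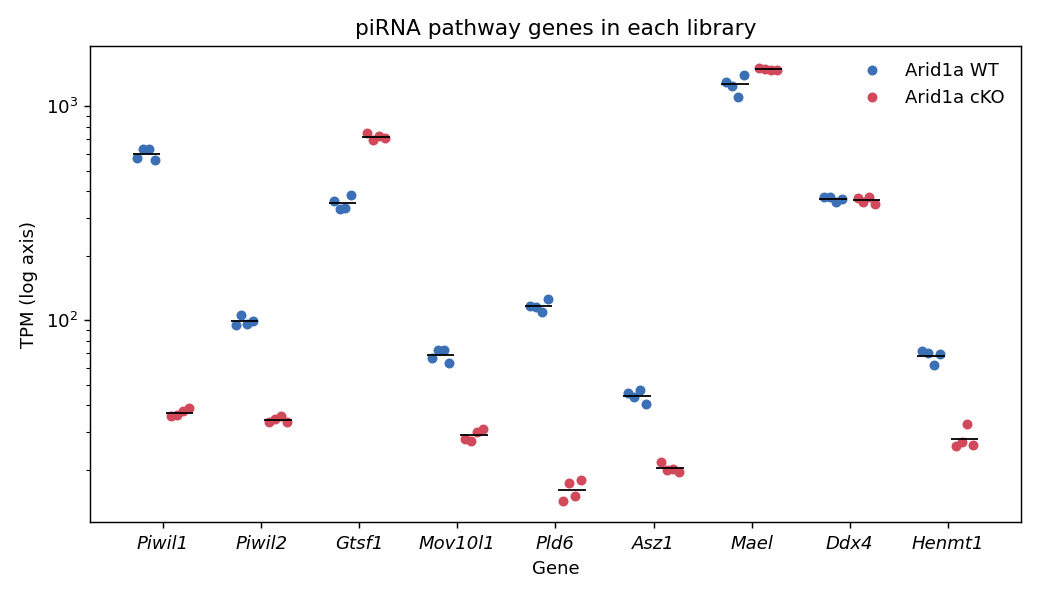
Transcript abundance (TPM, log axis) of 9 of the genes in each library, with *Arid1a* WT in blue and *Arid1a* cKO in red; each point is 1 library and each bar the mean of 4. *Piwil4* is left out because it was at 0 in most libraries. *Piwil1* drops from 561 to 630 TPM to 35.5 to 38.8 TPM, *Gtsf1* rises, and the *Ddx4* values overlap.

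*Piwil1*, on chromosome 5 of GRCm38.p6 from 128736071 to 128755474, encodes MIWI, the partner of most pachytene piRNAs and an endonuclease that persists into round spermatids. Its abundance was 574, 629, 630 and 561 TPM in *Arid1a* WT replicates 1 to 4 and 35.5, 35.9, 37.5 and 38.8 TPM in *Arid1a* cKO replicates 1 to 4. Every *Arid1a* cKO library lay far under every *Arid1a* WT library, and the *Arid1a* cKO libraries were close to each other. On the count scale *Piwil1* was 14.7-fold lower, with a log2 fold change of -3.88 (SE 0.05, adjusted p = 1.39e-14). That was the fall of rank 26 among all 17643 genes, and 0.51% of them fell by 3 log2 units or more. At an average log2 CPM from 5 upwards, a floor that *Piwil1* exceeds, 26 of 5667 genes fell by as much as 3 log2 units, a share of 0.459%. Over 18 alternative settings the value stayed between -4.14 and -3.85.

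*Piwil2*, on chromosome 14 from 70372477 to 70436898, encodes MILI, which acts from the fetal germ line onwards and shares the pachytene piRNAs with MIWI. It was at 95.4, 105, 95.5 and 99.5 TPM in *Arid1a* WT and at 33.3, 34.7, 35.9 and 33.3 TPM in *Arid1a* cKO. The genotypes did not overlap, and *Piwil2* was 2.81-fold lower in *Arid1a* cKO (log2 fold change -1.49, SE 0.05, adjusted p = 2.30e-12). Both PIWI genes of the adult testis fell, but to different extents.

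*Piwil4*, on chromosome 9 from 14701776 to 14740672, encodes MIWI2. Estimated counts were 0, 9, 17 and 0 in the *Arid1a* WT libraries and 0, 10, 0 and 0 in the *Arid1a* cKO libraries, so its transcript was barely detected in either genotype. The log2 fold change was -1.13 with a standard error of 1.20 (adjusted p = 0.408), and a difference was not detectable at this depth. Without *Arid1a* cKO replicate 2, the only one of its genotype with counts, the value became -5.66 (adjusted p = 0.0458), and without *Arid1a* WT replicate 3 it became -0.02. Its level stayed under 1 TPM in every library.

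The ratio of the *Piwil1* to the *Piwil2* level (TPM over TPM) gives the balance of MIWI to MILI transcripts within each library. It was 6.02, 5.96, 6.59 and 5.64 in *Arid1a* WT and 1.07, 1.03, 1.04 and 1.16 in *Arid1a* cKO. *Piwil1* transcripts outnumbered those of *Piwil2* in every *Arid1a* WT library, whereas the levels were close to equal in every *Arid1a* cKO library. The mean ratio was 6.05 ± 0.397 (SD, n = 4) against 1.08 ± 0.0589 (SD, n = 4), a 5.62-fold difference of the geometric means (-2.49 log2 units, two-sided exact permutation test over 70 assignments, p = 0.0286, the smallest that 4 against 4 allow). With CPM in place of TPM the difference was -2.39.

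**Figure D2:**
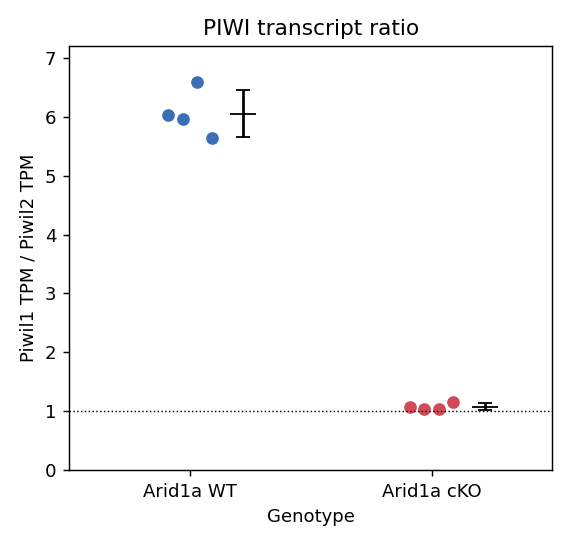
Ratio of *Piwil1* TPM to *Piwil2* TPM in each library (points), with the mean and SD of 4 libraries beside each genotype; the dotted line marks equal levels. *Arid1a* WT libraries lie between 5.64 and 6.59 and *Arid1a* cKO libraries between 1.03 and 1.16.

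*Gtsf1*, on chromosome 15 from 103402458 to 103430445, encodes a small zinc finger protein that binds PIWI proteins and speeds their cutting of target RNA. It went the opposite way to *Piwil1* and *Piwil2*, at 360, 330, 333 and 384 TPM in *Arid1a* WT and 749, 695, 727 and 707 TPM in *Arid1a* cKO. No value of one genotype reached those of the other. *Gtsf1* rose 2.17-fold (log2 fold change 1.12, SE 0.07, adjusted p = 3.23e-09). In *Arid1a* WT it was below *Piwil1* in every library, and in *Arid1a* cKO it was above *Piwil1* in every library.

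Among the processing factors of this set, *Pld6* changed most. *Pld6*, on chromosome 11 from 59783893 to 59787657, encodes the mitochondrial endonuclease (Zucchini in flies) that cuts precursors into phased pieces. Its level was 117, 115, 109 and 126 TPM in *Arid1a* WT and 14.4, 17.3, 15.1 and 18.0 TPM in *Arid1a* cKO, without overlap. It was 6.51-fold lower (log2 fold change -2.70, SE 0.07, adjusted p = 2.24e-13), the fall of rank 159 among all genes tested.

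*Mov10l1*, on chromosome 15 from 88982891 to 89055152, encodes the RNA helicase that binds precursors and hands them to the nuclease. It was at 66.6, 72.9, 72.4 and 62.9 TPM in *Arid1a* WT and at 27.8, 27.2, 30.05 and 30.9 TPM in *Arid1a* cKO. The groups stood apart, and the gene was 2.13-fold lower (log2 fold change -1.09, SE 0.04, adjusted p = 1.44e-11). *Asz1*, on chromosome 6 from 18050964 to 18109061, encodes GASZ, a scaffold that holds the processing machinery on the mitochondrial outer membrane. Its level was 45.5, 43.8, 47.1 and 40.5 TPM in *Arid1a* WT and 21.8, 20.0, 20.1 and 19.5 TPM in *Arid1a* cKO. Its count fell 1.74-fold (log2 fold change -0.80, SE 0.06, adjusted p = 4.16e-08), the smallest of the 6 called falls.

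*Henmt1*, on chromosome 3 from 108939454 to 108979885, encodes the methyltransferase that completes piRNA biogenesis by protecting the ends of the finished RNA. It was at 71.9, 70.1, 61.9 and 69.6 TPM in *Arid1a* WT and at 25.8, 27.1, 32.9 and 26.2 TPM in *Arid1a* cKO, again without overlap. The gene was 2.04-fold lower (log2 fold change -1.03, SE 0.07, adjusted p = 5.87e-09). Its exons overlap those of *Gm9857* on the opposite strand, and 13.3% of its 31-base words occur in other genes, so part of its count could belong elsewhere. For the other 9 genes this share was at most 2.41%.

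*Mael* and *Ddx4* were the processing factor genes of this set that were not called lower. *Mael*, on chromosome 1 from 166201385 to 166238744, encodes Maelstrom, a protein of the nuage and chromatoid body needed for transposon silencing and piRNA production. It was the most abundant of the set at 1297, 1240, 1107 and 1403 TPM in *Arid1a* WT and 1512, 1489, 1481 and 1469 TPM in *Arid1a* cKO, where each library exceeded all of *Arid1a* WT. It rose 1.29-fold (log2 fold change 0.37, SE 0.08, adjusted p = 0.000672), but with TPM rescaled to 1 common sum over the listed genes and tested with limma the change was 0.09 (adjusted p = 0.172). *Ddx4*, on chromosome 13 from 112598333 to 112652633, encodes the helicase VASA, a hallmark of germ cells. Its level was 374, 376, 355 and 368 TPM in *Arid1a* WT and 371, 357, 375 and 347 TPM in *Arid1a* cKO, and the genotypes overlapped. The log2 fold change was 0.12 (SE 0.05, adjusted p = 0.0675), and its sign and call depended on the test and unit, with 0.15 (adjusted p = 0.0215) for DESeq2 on counts and -0.17 (adjusted p = 0.00134) for limma on rescaled TPM. The median over all genes was -0.02 with edgeR and TMM scaling, -0.13 with rescaled TPM and -0.12 without TMM scaling.

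**Figure D3:**
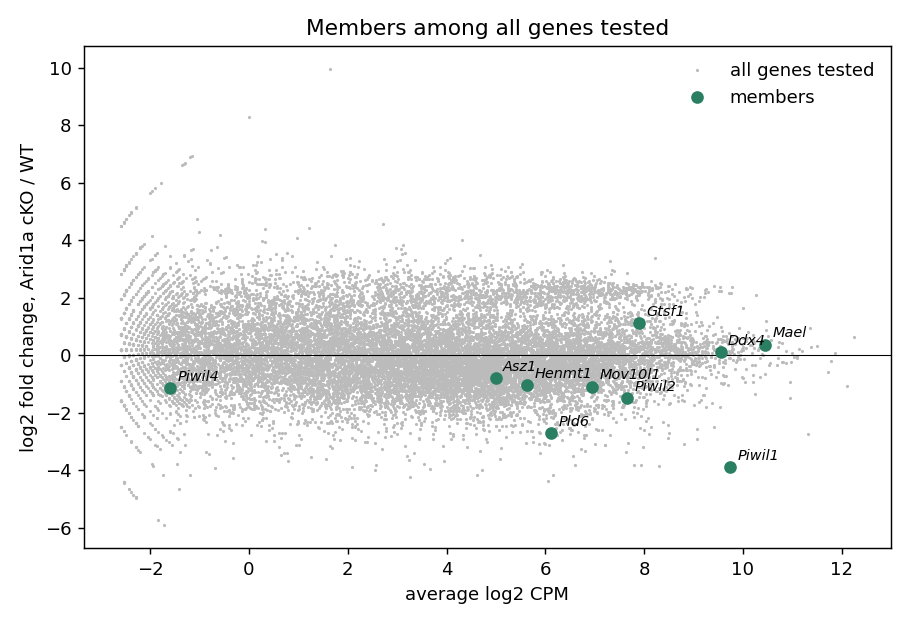
Log2 fold change (*Arid1a* cKO over *Arid1a* WT) against average log2 CPM for all 17643 genes tested (grey) and the 10 named genes (green). *Piwil1* at -3.88 lies at the lower edge of the cloud for abundant genes, while *Ddx4* and *Mael* lie near 0 at a similar abundance.

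The order of levels within the set changed accordingly. In *Arid1a* WT, mean TPM ran from *Mael* through *Piwil1*, *Ddx4*, *Gtsf1*, *Pld6*, *Piwil2*, *Mov10l1*, *Henmt1* and *Asz1* to *Piwil4*, and the ranges of *Ddx4* and *Gtsf1*, and of *Mov10l1* and *Henmt1*, overlapped. In *Arid1a* cKO the order was *Mael*, *Gtsf1*, *Ddx4*, *Piwil1*, *Piwil2*, *Mov10l1*, *Henmt1*, *Asz1*, *Pld6* and *Piwil4*, with overlap between *Piwil1* and *Piwil2* and again between *Mov10l1* and *Henmt1*. All other neighbours were apart in their ranges. *Piwil1* made up 18.0% to 22.4% of the summed TPM of the set in *Arid1a* WT and 1.27% to 1.44% in *Arid1a* cKO, *Gtsf1* went from 11.1% to 12.3% to between 25.7% and 26.8%, and *Mael* from 39.4% to 45.1% to between 53.8% and 55.1%. The summed level itself moved less, from 2811 to 3114 TPM to between 2689 and 2791 TPM, with lower levels at the 6 genes that fell beside higher ones at *Mael* and *Gtsf1*. All listed genes together held 78.1% to 81.1% of the full TPM scale in *Arid1a* WT and 88.1% to 88.6% in *Arid1a* cKO. Sums of TPM, those of the markers included, are thus not on a common scale between genotypes.

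The rest of the pathway was read from a list of 28 further genes, of which 25 were in the tables (*Spocd1*, *Dnmt3c* and *Gtsf1l* were not analysed here). Of the 25, 17 fell, 6 rose and *Fkbp6* and *Ddx25* were not called, with a median log2 fold change of -0.40, against -0.02 over all genes, where 37.5% fell and 36.5% rose. By at least 1 log2 unit, 11 of the 25 fell, against 16.0% of all genes. The largest falls were those of *Tdrd5* and *Tdrd1*, genes of Tudor domain proteins, which dock on methylated arginines of PIWI proteins. *Tdrd5*, which acts on pachytene precursors, went from 113 to 116 TPM to between 11.5 and 12.3 TPM (log2 fold change -3.12, SE 0.05, adjusted p = 4.01e-14). *Tdrd1*, the docking partner of MILI, went from 140 to 151 TPM to between 19.0 and 19.9 TPM (log2 fold change -2.74, SE 0.05, adjusted p = 4.01e-14). Neither gene had overlapping genotypes. *Tdrd12*, which works in secondary piRNA production, fell by 1.71 log2 units and its partner *Exd1* by 1.53, while *Gpat2*, a mitochondrial protein that binds MILI, fell by 1.79 and *Adad2*, an RNA-binding protein, by 2.45.

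Of the genes that rose, *Tex15*, which encodes a nuclear partner of the PIWI proteins, went from 14.1 to 15.7 TPM to between 63.7 and 69.9 TPM (log2 fold change 2.32, SE 0.05, adjusted p = 5.40e-14). *Dnmt3l*, the cofactor of de novo DNA methyltransferases, also rose by 2.32 log2 units (SE 0.09, adjusted p = 1.32e-11), from a mean of 3.82 to 15.6 TPM. *Kif17*, whose testis product is a kinesin of the chromatoid body, rose by 2.26 log2 units, and *Gtsf2*, the paralog of *Gtsf1*, by 1.85, from 105 to 108 TPM to between 338 and 367 TPM. These 4 were the genes of the list that rose by 1 log2 unit or more. Beside the changes of the pathway genes in both directions, the median log2 fold change was 2.16 over the spermatid markers, 1.98 over the leptotene and zygotene markers, 1.61 over the macrophage and blood markers, 0.45 over the peritubular markers, 0.44 over the spermatogonia markers, -0.23 over the pachytene spermatocyte markers, -1.56 over the Sertoli cell markers and -2.92 over the Leydig cell markers.

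The list holds 3 regulators of transcription of pachytene piRNA genes, and they did not move one way. Of these, *Mybl1* (A-MYB) went from 60.9 ± 4.46 to 25.3 ± 2.81 TPM (SD, n = 4; log2 fold change -1.30, SE 0.06, adjusted p = 4.53e-11), and *Tcfl5* fell by 0.50 log2 units (SE 0.05, adjusted p = 1.12e-06). *Btbd18*, whose product promotes elongation at a subset of pachytene piRNA loci, rose by 0.998 log2 units (SE 0.11, adjusted p = 1.19e-06), from 3.27 ± 0.424 to 5.7 ± 0.774 TPM (SD, n = 4). *Mybl1*, *Tcfl5* and *Btbd18*, like *Rnf17* and *Tdrkh* in what follows, are named after their values were seen.

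**Figure D4:**
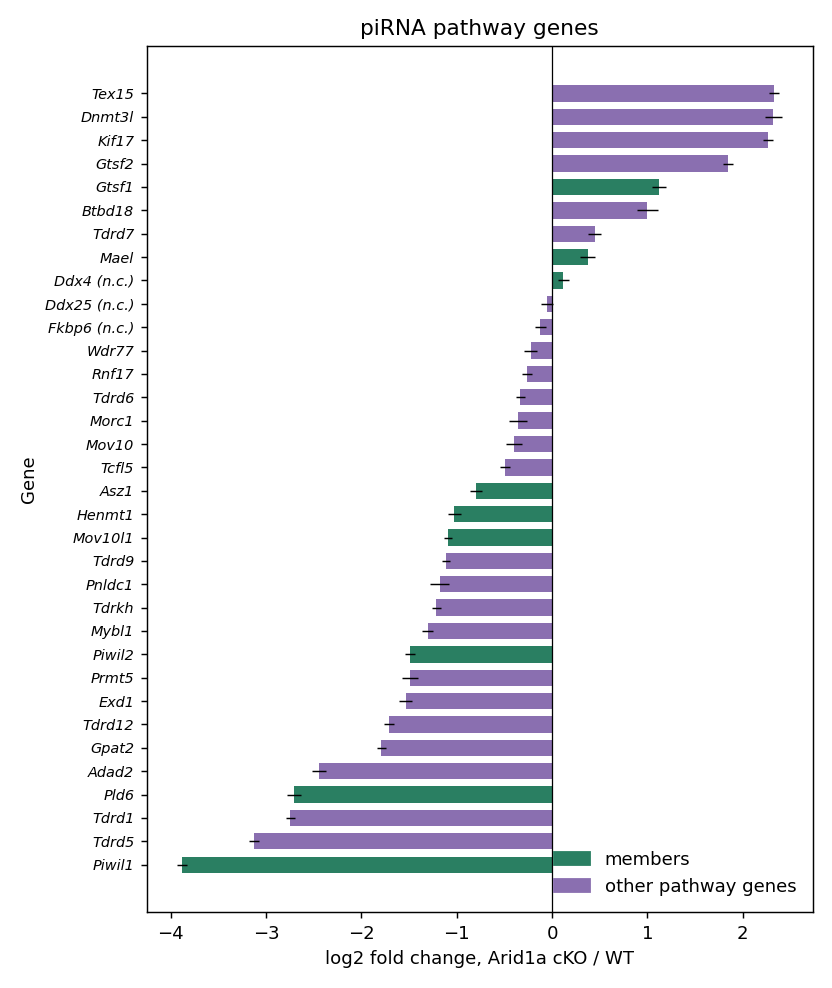
Log2 fold change (*Arid1a* cKO over *Arid1a* WT, bars, with the standard error as lines) of 9 of the 10 genes (green, *Piwil4* left out for its error) and 25 further pathway genes (purple), with n.c. for not called. Falls extend to -3.88 at *Piwil1* and rises to 2.32 at *Tex15*.

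AGO1 to AGO4, the other branch of the Argonaute family, carry microRNAs and are made in most cells. Of their 4 genes 3 fell and 0 rose, the latter in edgeR's test as in DESeq2, and 3 of 4 called is close to the 74.0% called over all genes. *Ago4* was 3.84-fold lower (log2 fold change -1.94, SE 0.07, adjusted p = 1.76e-12), from 15.3 to 19.1 TPM to between 3.54 and 4.83 TPM. *Ago2* fell by 1.83 log2 units (SE 0.19, adjusted p = 7.81e-07), although its TPM values, 3.73 to 10.9 in *Arid1a* WT and 1.13 to 3.89 in *Arid1a* cKO, overlapped. *Ago3* had a log2 fold change of -0.42 (SE 0.13, adjusted p = 0.00792) that turned to 0.20 (adjusted p = 0.166) with offsets for transcript length, and *Ago1* one of 0.40 (SE 0.31, adjusted p = 0.252). All 4 were below *Piwil1* in TPM in every library of either genotype.

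The genes nearest to each PIWI gene in profile were searched among 12996 genes by the root mean square distance of log2 CPM over the 8 libraries, each gene centred on its mean. For *Piwil1* these were *Lypd11* (distance 0.104, log2 fold change -3.82) and *1700006A11Rik* (distance 0.113, log2 fold change -3.83). For *Piwil2* they were *Cyb5b* (distance 0.0263, log2 fold change -1.50) and *Fbf1* (distance 0.0341, log2 fold change -1.54). The 8 libraries fall into 2 groups, so genes whose falls are of like size come out near each other.

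Effective transcript length is the estimated count divided by TPM. It moves when the mix of transcripts assigned to a gene shifts, but genes with a single annotated transcript can move too. With lengths centred on the median of all genes, limma called 5 of 9 genes, each as longer in *Arid1a* cKO, against 50.8% of 13958 genes called and 40.8% called longer (*Piwil4* had too few counts). That centring had an offset, since 1405 genes with a single annotated transcript had a median ratio of 1.05 and 95.3% of them were called longer. Centred on those genes, a choice made after seeing the data, 2 genes were shorter, 1 was longer and 6 were not called, against 12.2% shorter and 3.58% longer over all genes. The length of *Asz1* was 1.14 times that in *Arid1a* WT (adjusted p = 0.00784), that of *Piwil2* 0.936 times (adjusted p = 0.0115) and that of *Gtsf1* 0.969 times (adjusted p = 0.0171). With median centring, the short genes *Tnp1*, *Prm1*, *Tnp2* and *Prm2* had ratios from 1.029 to 1.037, below the 1.05 of genes with a single transcript. A short gene such as *Gtsf1* can therefore come out shorter under the second centring. For *Piwil1* the ratio was 1.00 (adjusted p = 0.8293), so no shift in its length was detected beside its lower count.

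Of the further pathway genes 4 of 25 were shorter and 0 longer, a share near the 12.2% shorter and 3.58% longer over all genes, and these 4 are given for their size. *Rnf17*, a Tudor domain gene that restrains secondary piRNA production, had 0.564 times the length of *Arid1a* WT (limma, adjusted p = 1.56e-06). Its count fell by 0.26 log2 units (SE 0.05, adjusted p = 0.000254), whereas with offsets for length the change was 0.52 (adjusted p = 1.03e-06), and its TPM went from between 196 and 207 to between 261 and 285. *Tdrkh*, a mitochondrial Tudor protein that recruits MIWI, had 0.727 times the length (adjusted p = 0.00583), *Tdrd12* 0.794 times (adjusted p = 0.0014) and *Prmt5* 0.817 times. Other genes hold 35.5% of the 31-base words of *Tdrkh*, which overlaps *Oaz3* on the opposite strand.

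**Figure D5:**
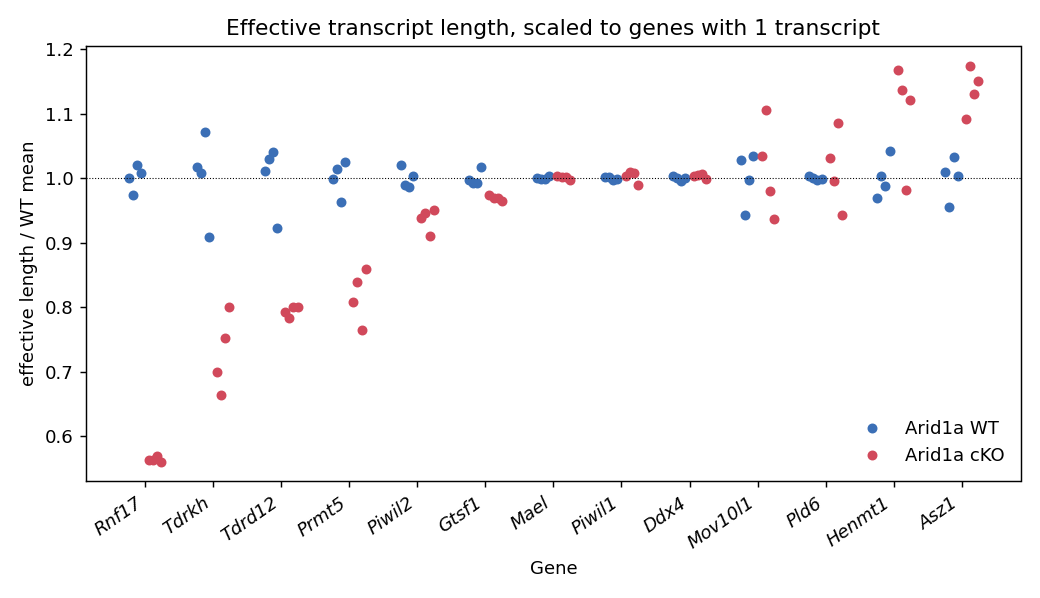
Effective transcript length in each library relative to the *Arid1a* WT mean of the gene, scaled to genes with 1 annotated transcript, for 9 of the genes and the 4 further pathway genes called shorter. The *Rnf17* points of *Arid1a* cKO lie near 0.564, while those of *Piwil1*, *Mael* and *Ddx4* stay close to 1.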

How the data were processed

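RNA-seq libraries of pachytene spermatocytes (4 *Arid1a* WT, 4 *Arid1a* cKO) were grouped by the genotype in their labels. The authors quantified reads with Salmon, summed transcripts to Entrez genes with tximport on mm10, and deposited, for 21058 genes, estimated counts and TPM. Salmon's strand setting is not given in the sources used here. Exons overlap those of another gene on the opposite strand at *Henmt1*, *Tdrkh*, *Piwil4*, *Tdrd5*, *Pnldc1*, *Tcfl5*, *Dnmt3l*, *Wdr77* and *Ago2*. They overlap on the same strand at *Kif17* and *Wdr77*, so part of the counts of all these genes could belong elsewhere. The authors' DESeq2 table, which holds their log2 fold changes, errors and p-values, was not used. Of the genes, 21036 matched a RefSeq record. TPM of the listed genes summed to 78.1% to 81.1% of the full TPM scale in *Arid1a* WT and 88.1% to 88.6% in *Arid1a* cKO.

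Estimated counts were rounded. Genes with at least 10 counts in all were tested across the 8 libraries with edgeR 4.0.16 (TMM, glmQLFit, glmQLFTest, genotype only) in R 4.3.3. CPM used TMM-adjusted library sizes, and log2 CPM a prior count of 2. Effective lengths of genes with at least 10 counts in every library were tested with limma 3.58.1, with Benjamini-Hochberg adjustment. On simulated counts of 17549 genes, of which 200 were changed, edgeR recovered 96.5% of changed genes (3.02% of calls false). In the data 74.0% of genes were called, so that false share does not carry over to these calls. Replicates differed beyond counting noise (chi-square per degree of freedom 1.74 to 19.1). The labels call the samples biological replicates, but whether each came from a separate purification is not stated, so p-values measure the spread between these samples.

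The alternatives were DESeq2 1.42.0, no TMM, DESeq2 size factors, filterByExpr, at least 1 count, replicate number as a block, length offsets, limma on log2(TPM + 1) and log2(TPM + 0.1), adjusted p of 0.01, at least 100 counts for lengths, and each library left out; rescaled TPM and centring on genes with 1 transcript in GENCODE M21 were added after seeing the data. Named were the 10 genes, *Arid1a*, *Ago1* to *Ago4*, up to 6 further pathway genes a direction called with a change of 1 log2 unit or more, the listed genes not in the tables, and the 2 nearest profiles to each PIWI gene. The members and lists were chosen with earlier results of these data known. Promoter sequences are from RefSeq, GRCm38.p6.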

Additional observations from a re-analysis of the deposited data

Results flagged for a closer look

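Of 90 groups of 4 libraries examined, 6 had a library standing far from the other 3 (gap over range above Dixon's critical value for 4 samples), where chance gives about 4.5. *Piwil2* in *Arid1a* WT replicate 3 was low at 271.1 CPM against 301.6 to 306.4 CPM in the others (gap over range 0.864), and its fall was called with each library left out in turn. *Piwil4* in *Arid1a* cKO replicate 2 was the only one of its group above 0, at 0.571 CPM (gap over range 1). *Ago1* in *Arid1a* WT replicate 2 was low at 2.06 CPM against 7.01 to 7.32 CPM (0.940), and *Ago4* in the same library was high at 76.7 CPM against 66.5 to 68.1 CPM (0.845). *Lypd11*, the gene closest in profile to *Piwil1*, was low in *Arid1a* cKO replicate 3, at 11.4 CPM against 13.0 to 13.2 CPM (0.892). The summed Sertoli cell markers were high in *Arid1a* WT replicate 3, at 534.1 TPM against 463.5 to 467.5 TPM (0.943).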

How the results depend on the processing

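The 6 falls and the rise of *Gtsf1* were called under each alternative run. With limma on log2(rescaled TPM + 1), the number of the 10 genes called higher became 1, as *Mael* was not called. *Ddx4* was called higher with DESeq2 and with its size factors (both 0.15), with filterByExpr (0.14) and without *Arid1a* WT replicate 1 or replicate 4 (both 0.14), and reversed to -0.023 with limma on log2(TPM + 1) and -0.023 on log2(TPM + 0.1) and to -0.17 with rescaled TPM. *Rnf17* reversed to 0.52 with length offsets and to 0.42, 0.43 and 0.27 in the same 3 TPM tests. *Ago3* reversed to 0.20 with length offsets and to 0.090 and 0.10 with TPM. The cause was not tested. The *Piwil1* to *Piwil2* ratio ranged from -2.53 to -2.45 without each library in turn (exact permutation p = 0.0571, the smallest that 3 against 4 allow). With same-numbered libraries as a replicate block it was -2.49 (exact sign flips, p = 0.125, the smallest that 4 pairs allow). Same-numbered libraries share only a number (correlations of their deviations -0.138 to 0.162), and the block called 8 of the 10 genes, as without it. Effective lengths depended on the centring, with 3 genes called in place of 5 when centred on genes with 1 transcript, 1 longer and 2 shorter, and *Gtsf1* reversed to -0.045 log2 units. The longer *Henmt1* was no longer called under that centring, the block (adjusted p = 0.0524), or without any one library except *Arid1a* WT replicate 4 or *Arid1a* cKO replicate 3. With median centring, *Pld6* became longer without *Arid1a* cKO replicate 4 (0.11 log2 units) and *Gtsf1* without *Arid1a* WT replicate 4 (0.024 log2 units). Depth limits *Piwil4*, at no more than 17 counts in a library.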
